A study of Mus musculus with 128 samples.

Results

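Classical and non-classical MHC class I heavy chains, their light chain and 2 genes of peptide supply were followed through the developing, cultured and regenerating mouse liver. The set held 10 genes of the 40824 in the count table, taken by name with earlier results of these data known. H2-K1, H2-D1, H2-Q4, H2-Q6, H2-Q7, H2-Q10 and H2-T23 encode heavy chains, B2m encodes beta-2-microglobulin, Tap1 encodes a subunit of the peptide transporter and Psmb8 encodes an immunoproteasome subunit. All 10 were detected, and all 10 passed the filter on low counts in each of the 46 comparisons made.

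Class I molecules show peptides cut from a cell's own proteins to CD8 T cells. The proteasome cuts the proteins, the transporter made of Tap1 and Tap2 carries the peptides into the endoplasmic reticulum, and chaperones such as tapasin, calreticulin and Pdia3 load them onto a heavy chain paired with beta-2-microglobulin. H2-K1 and H2-D1 are the classical, highly polymorphic heavy chains, H2-T23 encodes Qa-1, and H2-Q10 encodes a secreted heavy chain made mainly by hepatocytes. Hepatocytes hold little class I relative to blood cells, and interferons raise it together with Tap1 and Psmb8 through factors that include Irf1 and Nlrc5.

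The study measured RNA with Smart-seq3xpress, a full-length single-cell method, in cells labelled hepatoblast up to E14.5 and hepatocyte from E15.5 (E, embryonic day). Read counts were summed over the 7 to 133 cells of each of 106 libraries, which fell into 49 groups, and 22 further libraries measured open chromatin with ATAC-seq. The B6C3F1 wild-type embryos, of strain C57BL/6XC3H, spanned E11.5, E12.5, E13.5, E14.5, E15.5, E16.5, E17.5 and E19.5 with 3 libraries at E15.5 and E16.5 and 2 elsewhere. The other lines were C57BL/6. Foxa3Cre embryos carried a Cre recombinase named for Foxa3, an endodermal transcription factor. Its controls carried Foxa3-Cre alone and were titled Pard3WT or YapWT, and its knockouts were Foxa3-Cre;Pard3-fl/fl (Pard3HMKO), Foxa3-Cre;Yap-fl/fl (YapHMKO) or both. Pard3 encodes a polarity protein and Yap1 a coactivator of the Hippo pathway. Pard3WT and Pard3HMKO were compared at E11.5, E13.5, E15.5, E17.5, E19.5, P0 and P14 (P, postnatal day), and YapHMKO at E15.5 and E17.5. AlfpCre embryos at E17.5 carried a Cre driven by albumin regulatory elements, without or with Pard3-fl/fl.

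Cultures were E15.5 Foxa3Cre liver tissue of 4 genotypes kept for 2 days untreated or with PD, U0126, TPPB, or TPPB and PD. U0126 inhibits MEK and TPPB activates protein kinase C; PD is given here as labelled, and no dose is given in the sources used here. Adult mice at P60 were Pard3-fl/fl, and Pard3HMKO had also received AAV-Tbg-Cre, a virus with a hepatocyte promoter driving Cre, with 7 days stated for the injection. They were sampled at day 0, 2 or 7 after partial hepatectomy. Day 7 had 4 Pard3WT and 6 Pard3HMKO libraries, and every other group outside B6C3F1 had 2. Nothing in the labels says that libraries came from separate animals, so p-values measure only the spread between these libraries.

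The promoters of 5 of these genes are shown because their RNA behaved differently below: H2-K1, H2-D1 and H2-Q7 as related heavy chains, H2-Q10 as the secreted one, and B2m as the light chain. Each line gives the bases from -180 to -1 of the transcription start, 5′ to 3′ on the gene's strand, from RefSeq's annotation of GRCm38.p6. Capitals mark matches, on either strand, to GAAANNGAA (an interferon-response element core), GGGATTCCC (a kappa B element), CCAAT or TGACG. The full 300-base windows lie at chr17:34000298-34000597 (H2-K1, minus strand, the upstream of 2 annotated starts), chr17:35262844-35263143 (H2-D1, plus strand), chr17:35438905-35439204 (H2-Q7, plus strand), chr17:35469839-35470138 (H2-Q10, plus strand) and chr2:122147437-122147736 (B2m, plus strand).
H2-K1: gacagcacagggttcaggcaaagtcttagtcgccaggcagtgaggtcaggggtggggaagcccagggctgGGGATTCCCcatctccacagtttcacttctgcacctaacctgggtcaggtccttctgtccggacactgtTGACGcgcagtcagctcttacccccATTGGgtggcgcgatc
H2-D1: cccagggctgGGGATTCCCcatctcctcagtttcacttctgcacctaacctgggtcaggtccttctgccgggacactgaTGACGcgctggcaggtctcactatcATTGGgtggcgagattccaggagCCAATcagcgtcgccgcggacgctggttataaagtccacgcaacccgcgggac
H2-Q7: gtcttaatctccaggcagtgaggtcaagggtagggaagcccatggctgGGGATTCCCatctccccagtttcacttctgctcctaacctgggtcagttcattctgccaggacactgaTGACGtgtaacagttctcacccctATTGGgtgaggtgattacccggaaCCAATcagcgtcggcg
H2-Q10: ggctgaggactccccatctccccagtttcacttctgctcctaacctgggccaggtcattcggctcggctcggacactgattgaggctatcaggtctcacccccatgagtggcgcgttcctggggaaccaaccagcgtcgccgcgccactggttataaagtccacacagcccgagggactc
B2m: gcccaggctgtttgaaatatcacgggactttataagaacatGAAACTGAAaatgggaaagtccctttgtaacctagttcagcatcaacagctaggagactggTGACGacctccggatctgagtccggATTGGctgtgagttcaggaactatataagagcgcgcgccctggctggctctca
Of the 10 genes, 4 matched GGGATTCCC (H2-K1, H2-D1, H2-Q6, H2-Q7), a string held by 0.353% of 32851 promoter windows of the same length. GAAANNGAA was held by 2 members (H2-T23, B2m) and 8.56% of all windows, CCAAT by 8 members and 37.4%, and TGACG by 6 members and 20.8%. H2-Q10 and Psmb8 held none of these letters in this window. The strings were chosen with the sequences in view, and a match is not a measured binding site. Only these exact strings were searched, so a gene without a match may still hold a variant of the element.

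The genes lie at 2 loci. On chromosome 17 (GRCm38.p6) they run from H2-K1 (33996012 to 34000619) through Tap1 (34187556 to 34197225), Psmb8 (34198195 to 34201454), H2-D1 (35263094 to 35267497), H2-Q4 (35379617 to 35384674), H2-Q6 (35424850 to 35430055), H2-Q7 (35439140 to 35443773) and H2-Q10 (35470089 to 35474563) to H2-T23 (36029977 to 36032701). B2m lies on chromosome 2 (122147687 to 122153082). H2-Q6 and H2-Q7, and H2-T10 and H2-T22, are near-identical pairs, so how reads were split within each pair is uncertain. The H2 genes differ between mouse haplotypes and reads were aligned to 1 reference; whether an allele difference contributed to any value below was not tested.

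Libraries held 4506130 to 86188713 reads. Levels are CPM, read counts scaled to library size with TMM factors over all 106 libraries, and were compared within a gene only, since they are not per length. The 12 hepatocyte markers summed to between 22710 and 482500 CPM in the embryonic libraries outside the E17.5 Foxa3Cre controls. In those 6 controls, titled Pard3WT, YapWT or both, they summed to 635400 to 723000 CPM. Reads for at least 50% of the markers of another cell type were present in 40.5% of the 4264 cells. These types were macrophage and myeloid, lymphoid and class II, endothelial, erythroid, stellate and biliary. The share ran from none in the E15.5 and E16.5 B6C3F1 groups to 98.3% in the P14 Pard3HMKO group. Reads per cell were not equalized for this share. Their median was 114200 to 185900 in the E15.5 and E16.5 B6C3F1 libraries and 622917 over all cells, and the part of depth was not tested. Erythroid markers summed to 13.3 to 4474 CPM in the embryonic livers and 2388 to 8380 CPM at P0. Yap1 was lower in the E15.5 YapHMKO livers (log2 fold change -5.02) and YapHMKO cultures (-5.33) but not in the E17.5 libraries labelled YapHMKO (0.67) or labelled with both deletions (0.53). Pard3 was not called lower in any Pard3HMKO group, and since its counts span the whole gene they do not check the deletion. In a sum over cells, fewer cells of a type and less RNA per cell cannot be told apart.

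Each gene covered a wide range of group means. H2-K1 ran from 13.4 CPM in the E17.5 Foxa3Cre Pard3WT livers to 1377 CPM in the adult Pard3HMKO livers at day 0, and H2-D1 from 9.51 to 979 CPM. H2-Q10 ran from 54.0 CPM in untreated YapHMKO cultures to 3004 CPM in the adult Pard3HMKO livers at day 7, and B2m from 310 to 9374 CPM. H2-Q4 stayed between 5.63 and 106 CPM and H2-T23 between 3.97 and 269.7 CPM. H2-Q6 (0.537 to 322 CPM) and H2-Q7 (0.241 to 130.3 CPM) both had their lowest mean in the E15.5 Pard3WT livers. Tap1 and Psmb8 were at 0 in at least 1 embryonic group and reached 39.0 and 103 CPM.

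**Figure D1:**
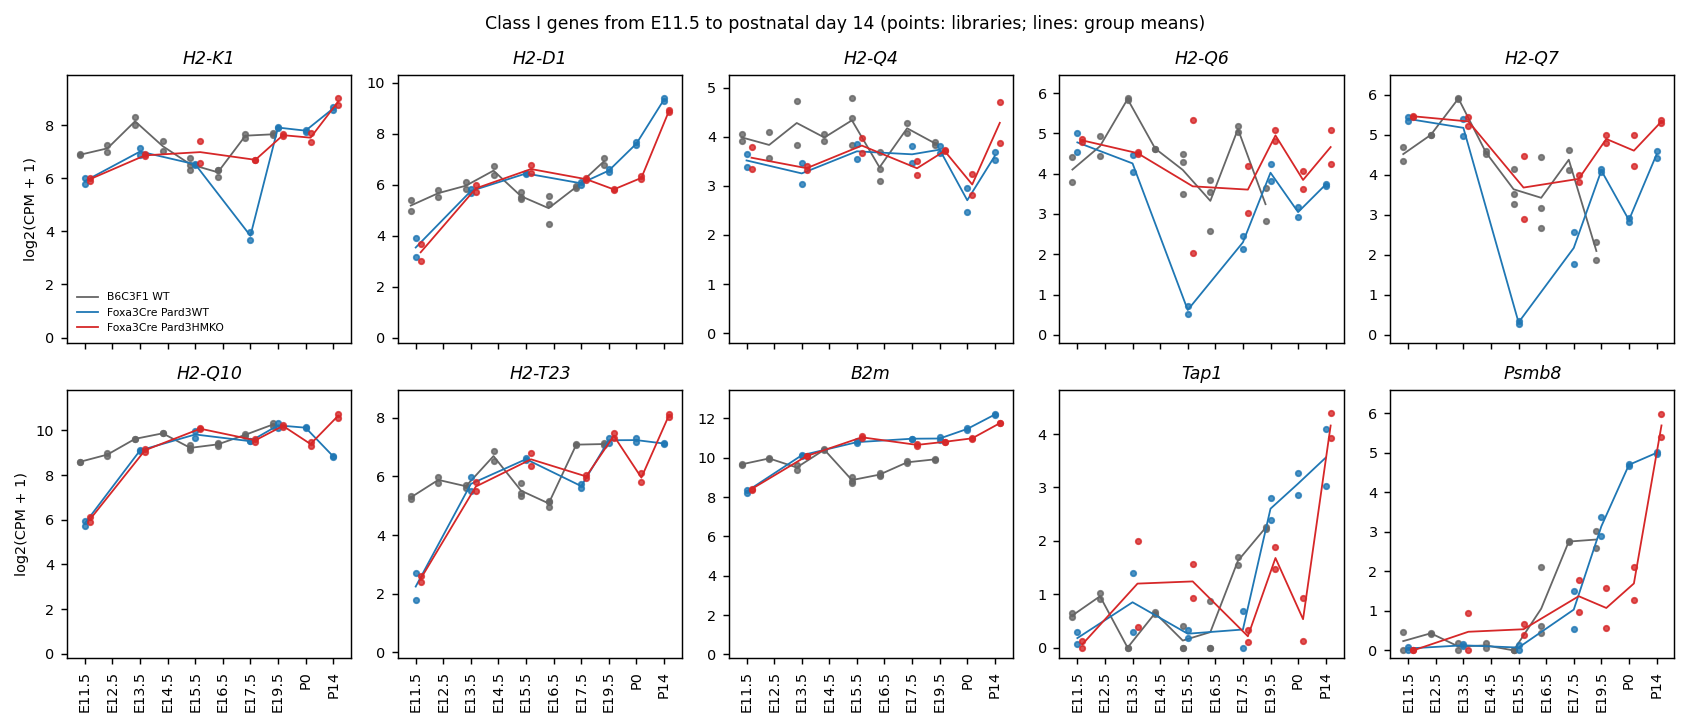
Levels of the 10 genes in log2(CPM + 1) by stage in B6C3F1 wild type (grey), Foxa3Cre Pard3WT (blue) and Foxa3Cre Pard3HMKO (red); points are libraries and lines join group means. H2-K1 of Pard3WT dips at E17.5 (11.8 and 14.9 CPM), H2-Q6 and H2-Q7 of Pard3WT dip at E15.5, and Tap1 and Psmb8 stay near 0 until late gestation.

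In B6C3F1 livers Psmb8 had the steepest slope of the 10 genes with age, and H2-Q7 fell. Psmb8 was at 0 and 0.386 CPM at E11.5, at 0 in all 3 libraries at E15.5, at 0.531, 3.33 and 0.358 CPM at E16.5 and at 5.03 and 7.11 CPM at E19.5. The libraries of E17.5 and E19.5 were all above those of the earlier stages, which overlapped each other. In a linear fit over the 18 libraries, 4 of the 10 genes changed per day, where 35.6% of all genes did (edgeR quasi-likelihood test with Benjamini-Hochberg adjustment over all genes, as for every adjusted p here). Slopes, in log2 units per day ± standard error (as for every log2 fold change given with an error), were 0.73 ± 0.16, adjusted p = 0.00118 for Psmb8, 0.18 ± 0.06, adjusted p = 0.0149 for H2-T23, 0.15 ± 0.03, adjusted p = 0.00101 for H2-Q10 and -0.35 ± 0.09, adjusted p = 0.00337 for H2-Q7. H2-Q10 rose from 383 and 388 CPM at E11.5 to 1279 and 1188 CPM at E19.5. H2-Q7 went from 59.1 and 58.5 CPM at E13.5, its highest stage, to 2.65 and 4.00 CPM at E19.5.

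Several genes did not follow a line. H2-K1 was highest at E13.5 (312 and 256 CPM), lowest at E16.5 (65.0, 78.2 and 79.2 CPM) and at 207 and 195 CPM at E19.5. B2m went from 1371 and 1341 CPM at E14.5 to 446, 526 and 426 CPM at E15.5, with no overlap. All 6 libraries of E15.5 and E16.5 lay below both E14.5 libraries for H2-K1, H2-D1, H2-T23 and B2m. Those 6 libraries held 4506130 to 7965011 reads, and the other 12 B6C3F1 libraries 15470716 to 83486271. Without the 6, as an alternative, 6 of the 10 genes had a slope, with H2-D1 (0.16) and Tap1 (0.36) added, where 39.3% of all genes did. Among 18 loading genes, 5 rose and 1 fell along B6C3F1 stages, among 14 other class I genes 6 rose and none fell, and among 20 regulators 8 rose, beside 35.6% of all genes. Here and below, loading genes stands for a list of class I loading and processing genes. That list is wider than peptide loading itself and includes Hspa5, Sec61a1 and Sec61b. Azgp1, a secreted class I relative, had a slope of 1.90 ± 0.19, adjusted p = 1.04e-07, Tapbpl 0.39, tapasin (Tapbp) 0.38 and Fcgrt, the neonatal Fc receptor, 0.20. The median slope was 0.066 for the 10 genes and -0.00607 for all genes.

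Foxa3Cre Pard3WT livers gained most of these genes between E11.5 and E19.5. From E11.5 to E19.5, H2-T23 went from 5.46 and 2.48 to 140.2 and 158 CPM, H2-Q10 from 52.1 and 60.9 to 1301 and 1104 CPM, and B2m from 296 and 325 to 2128 and 1902 CPM. The stages did not overlap for any of these 3. Of the 10 genes, 7 were higher and 1 lower at E19.5, where 37.2% of all genes were called. Log2 fold changes were 5.24 ± 0.25, adjusted p = 1.45e-18 for H2-T23, 4.42 ± 0.11, adjusted p = 8.03e-26 for H2-Q10, 3.09 ± 0.22, adjusted p = 5.91e-14 for H2-D1, 2.71 ± 0.06, adjusted p = 2.64e-27 for B2m and 2.04 ± 0.18, adjusted p = 2.49e-11 for H2-K1. Tap1 rose by 5.20 ± 1.62, adjusted p = 0.0112, a call lost without E11.5 replicate 2 (4.57, adjusted p = 0.121). Psmb8 had 401 reads at E19.5 against 3 at E11.5, a 234.2-fold difference (exact 95% Clopper-Pearson interval 79.56 to 1140, counting error only). H2-Q7 fell (-1.33 ± 0.35, adjusted p = 0.00245).

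Other genes of the pathway were counted over the same interval. Of 18 loading genes, 12 were higher and 4 lower at E19.5, of 14 other class I genes 7 and 1, and of 21 regulators 10 and 0, beside 37.2% of all genes. Tapbpl, a tapasin relative, rose by 4.35, Psme1 and Psme2, proteasome activator subunits, by 2.11 and 1.54, and Fcgrt by 2.88. Of 21 interferon-induced genes 15 were higher, among them Ifi35 (8.12), Igtp (9.45) and Irgm2 (7.38). Cells with markers of another type made up 72.7% at E11.5 and 52.3% at E19.5. Most of them held erythroid markers (32 of 50 and 38 of 49 cells at E11.5, 31 of 61 and 36 of 71 cells at E19.5). From E11.5 to E19.5 the hepatocyte marker sum went from 22710 and 23190 to 456300 and 461200 CPM, the macrophage sum from 13.1 and 13.49 to 210.3 and 306 CPM and the lymphoid and class II sum from 1.44 and 2.53 to 12.6 and 25.6 CPM. Their part in the rise was not tested.

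The B6C3F1 and Foxa3Cre Pard3WT embryos differ in strain and in Cre, which cannot be told apart here. At E11.5, 5 members were higher in B6C3F1 and none lower (17.7% of all genes called): H2-T23 by 3.28, H2-Q10 by 2.80, H2-D1 by 1.72, B2m by 1.41 and H2-K1 by 1.02. The hepatocyte marker sum was also higher, at 94780 and 95820 CPM in B6C3F1 against 22710 and 23190 CPM in Pard3WT, and cells with markers of another type made up 17.0% and 72.7%. Their part in the difference was not tested. At E13.5, 4 were higher and 2 lower (20.2%), with H2-K1 at 312 and 256 CPM against 140.5 and 116 CPM (1.14 ± 0.15, adjusted p = 1.66e-05). There the macrophage marker sum was 5.37 and 15.2 CPM against 36.7 and 42.4 CPM. Tap1 had no read in B6C3F1 and 50 in Pard3WT, at least 11.8-fold higher against a floor of 3 counts over the group. Tap1 lost its call without either B6C3F1 library or Pard3WT replicate 2 (adjusted p up to 0.181), and H2-Q4 without B6C3F1 replicate 2 (0.61) or Pard3WT replicate 1 (0.93). Cells with markers of another type made up 10.9% of B6C3F1 and 90.4% of Pard3WT cells at E13.5. Without them the H2-Q4 difference (1.15 with all cells) had the opposite sign. All 41 cells of Pard3WT replicate 1 held such markers, so that fit had only replicate 2 there. In both Pard3WT libraries these were erythroid markers (41 of 41 and 34 of 42 cells), and no cell held macrophage markers at that share.

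At E15.5, 2 members were higher and 4 lower in B6C3F1 (16.4% of all genes called). H2-Q7 was at 16.6, 10.4 and 8.59 CPM against 0.272 and 0.210 CPM (5.55 ± 0.46, adjusted p = 2.07e-08) and H2-Q6 differed by 4.98 ± 0.45, adjusted p = 7.53e-08. B2m was at 446, 526 and 426 CPM against 1721 and 1821 CPM (-1.93 ± 0.08, adjusted p = 1.22e-12). At E17.5, 4 were higher and 1 lower (22.2%), led by H2-K1 at 204 and 184 CPM against 11.8 and 14.9 CPM (3.82 ± 0.17, adjusted p = 3.51e-12). At E19.5, 2 were lower (15.0%): H2-Q7 (-2.29 ± 0.33, adjusted p = 4.16e-05) and B2m (-1.08 ± 0.09, adjusted p = 3.20e-08). B2m was higher in B6C3F1 at E11.5 and lower at each of the 4 later stages compared.

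Deletion of Pard3 with Foxa3Cre was followed by calls that differed from stage to stage. At E11.5 edgeR called 0 of the 10 genes (0.0754% of all genes), with 1 at an unadjusted p below 0.05 and 0 by DESeq2. At E13.5 it called 0 of 10 (0.0%), with 0 at an unadjusted p below 0.05 and 0 by DESeq2. At E19.5 it called 1 (6.95%), H2-D1, at 55.8 and 55.2 CPM against 89.7 and 97.1 CPM (-0.71 ± 0.20, adjusted p = 0.0237). That call was lost without any 1 of the 4 libraries (adjusted p up to 0.157). Beside it, 8 of 21 interferon-induced genes were lower at E19.5, among them Iigp1 (-5.18), Igtp (-2.53) and Ifi47 (-3.48). The macrophage marker sum was lower as well, at 90.9 and 155 CPM against 210.3 and 306 CPM, and its part was not tested.

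At E15.5 H2-Q6 and H2-Q7 were the 2 members called between Pard3HMKO and Pard3WT, where 0.237% of all genes were. H2-Q7 was at 6.42 and 21.1 CPM in the knockouts and 0.272 and 0.210 CPM in the controls (5.76 ± 0.52, adjusted p = 2.68e-08). H2-Q6 was at 3.08 and 39.5 CPM against 0.443 and 0.631 CPM (5.32 ± 0.82, adjusted p = 0.00135). Both controls lay below both knockouts for each gene, and the knockouts differed from each other by more than their lower value. The low pair of libraries was the controls: H2-Q7 was at 36.1 to 43.3 CPM in the 4 YapWT and YapHMKO livers of the same day. The H2-Q6 call was lost without Pard3HMKO replicate 2 (2.53, adjusted p = 0.072) or Pard3WT replicate 1 (5.04, adjusted p = 0.092). Fitted on these 4 libraries alone, neither was called (adjusted p = 0.895 for both).

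At least 1 H2-Q7 read was found in 5 of 41 and 4 of 42 cells of the E15.5 Pard3WT libraries and in 18 of 42 and 30 of 44 cells of the Pard3HMKO libraries. It was found in 37 of 40 and 21 of 26 YapWT cells and in 19 of 21 and 23 of 28 YapHMKO cells. After thinning each cell to 100000 reads the shares by group were 2.47%, 45.3%, 68.8% and 75.0%. No loading gene (0 of 18), regulator (0 of 21) or interferon-induced gene (0 of 21) was called beside them. Among 14 other class I genes Azgp1 was lower, with 0 reads in Pard3HMKO and 399 in Pard3WT, at least 116-fold lower. Macrophage markers summed to 0.746 to 48.7 CPM and lymphoid and class II markers to 0.0 to 0.477 CPM in these 4 libraries. In YapHMKO livers of the same day 1 member was called (0.302% of all genes): B2m, at 758 and 677 CPM against 952 and 937 CPM (-0.41 ± 0.06, adjusted p = 6.49e-05). That call was lost without the filter on low counts (adjusted p = 0.111), without cells holding markers of another type (0.252) and with only the compared libraries in the fit (0.651).

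At E17.5 H2-K1 separated the Foxa3Cre controls from every other liver. It was at 11.8 and 14.9 CPM in Pard3WT, 18.8 and 17.7 CPM in YapWT and 18.6 and 14.9 CPM in the Pard3WT YapWT controls. The 6 knockout libraries were at 103 and 102 CPM (Pard3HMKO), 104 and 115 CPM (labelled YapHMKO) and 102 and 118 CPM (labelled with both deletions). AlfpCre libraries were at 146 and 180 CPM (Pard3WT) and 217 and 184 CPM (Pard3HMKO), and B6C3F1 at 204 and 184 CPM. The 6 Foxa3Cre controls lay below all other E17.5 libraries. They were also below every E15.5 and E19.5 library of the series.

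In the tests, Pard3HMKO had 2 members higher and 1 lower (14.9% of all genes called), with H2-K1 2.94 ± 0.19, adjusted p = 2.56e-12, H2-Q7 1.95 ± 0.38, adjusted p = 3.14e-04 and B2m -0.31 ± 0.06, adjusted p = 1.29e-04. The libraries labelled YapHMKO had 3 higher and 1 lower (14.4%): H2-K1 2.59 ± 0.19, adjusted p = 3.14e-11, H2-Q7 2.50 ± 0.38, adjusted p = 1.04e-05, H2-T23 0.78 ± 0.21, adjusted p = 0.00761 and B2m -0.41 ± 0.06, adjusted p = 3.12e-06. Those labelled with both deletions had 2 higher and 1 lower (14.6%): H2-K1 2.73 ± 0.19, adjusted p = 1.20e-11, H2-Q7 2.31 ± 0.38, adjusted p = 3.35e-05 and B2m -0.39 ± 0.06, adjusted p = 4.79e-06. H2-K1, H2-Q7 and B2m kept their calls without any 1 library; that of H2-T23 was lost without YapWT replicate 1 (0.81, adjusted p = 0.051), YapWT replicate 2 (0.75) or YapHMKO replicate 2 (0.65). B2m was at 1998 and 1997 CPM in Pard3WT against 1648 and 1565 CPM in Pard3HMKO. H2-D1, the other classical heavy chain, was at 63.4 to 84.7 CPM in the controls and 62.3 to 81.6 CPM in the knockouts and was called in none of the 3 comparisons.

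The AlfpCre embryos were otherwise. Between AlfpCre Pard3HMKO and Pard3WT 1 member was called (5.28% of all genes): H2-Q7 at 47.0 and 38.5 against 10.3 and 8.36 CPM (2.22 ± 0.36, adjusted p = 7.23e-05). Without cells holding markers of another type the H2-Q7 difference was 1.85 and not called (adjusted p = 0.0617). The H2-K1 difference was 0.33 ± 0.18, adjusted p = 0.379. The knockout effects themselves differed between the Cre lines for H2-K1 (-2.61 ± 0.26, adjusted p = 8.70e-08, AlfpCre minus Foxa3Cre) and B2m (0.49 ± 0.08, adjusted p = 2.88e-04), 2 of 10 members where 2.91% of all genes were called. Beside this, 8 of 21 interferon-induced genes were lower in AlfpCre Pard3HMKO, led by Iigp1 (-6.23), Igtp (-2.65) and Ifi47 (-3.91). The macrophage marker sum was 43.2 and 95.6 CPM in these knockouts against 212 and 213 CPM in the controls, the lymphoid and class II sum 2.11 and 3.74 against 15.96 and 22.66 CPM, and the hepatocyte sum 253900 and 267200 against 423700 and 482500 CPM. Their part was not tested.

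**Figure D2:**
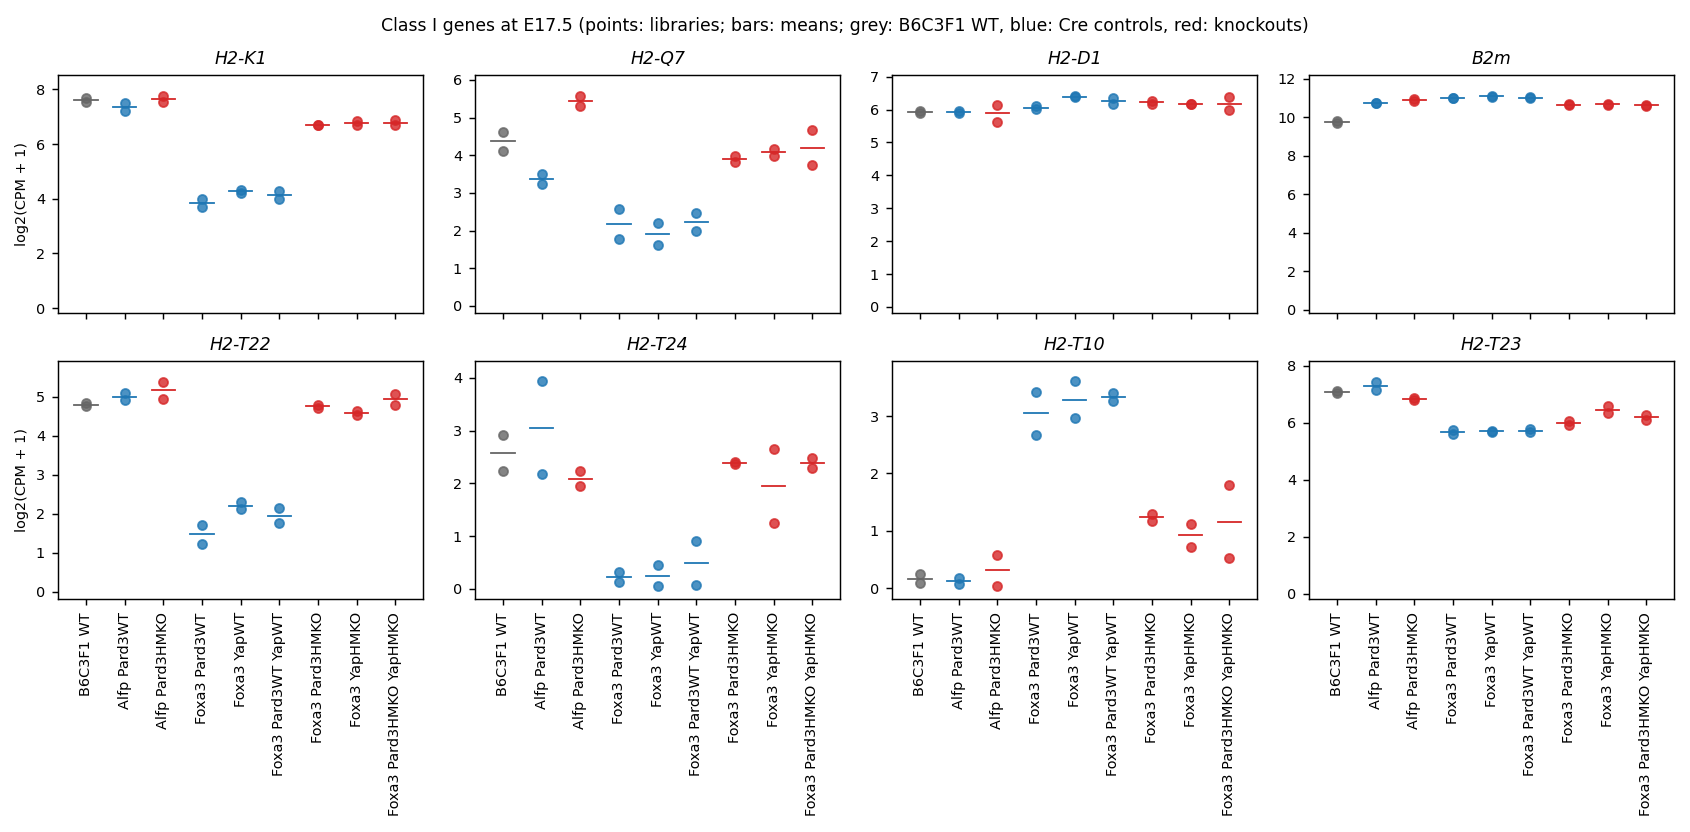
Levels at E17.5 in log2(CPM + 1) for 8 class I genes; points are libraries, bars are means, grey is B6C3F1, blue the Cre controls and red the knockouts. The 6 Foxa3Cre controls sit lowest for H2-K1 and H2-T22 and highest for H2-T10, while H2-D1 overlaps between controls and knockouts.

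Other heavy-chain genes marked the same 6 controls. H2-T22 was at 1.35 to 3.90 CPM in them and 22.1 to 32.6 CPM in the knockouts (3.80 ± 0.33, adjusted p = 5.35e-10 for Pard3HMKO), and H2-T24 was at 0.0355 to 0.889 CPM in the controls. H2-T10 was the reverse, at 5.41 to 11.2 CPM in the controls and 0.435 to 2.48 CPM in the knockouts. In each of the 3 Foxa3Cre comparisons 3 of 14 other class I genes were higher and 3 lower. Among the 18 loading genes none was higher and 7, 6 and 5 were lower (Pard3HMKO, labelled YapHMKO, labelled with both deletions). Pdia3 was at -0.52, -0.54 and -0.53. Ifngr1, a chain of the interferon gamma receptor, was at -1.48, -1.14 and -1.44. Of the 103 tested genes from H2-K1 to H2-T23 on chromosome 17, 18, 22 and 18 were called, beside 14.9%, 14.4% and 14.6% of all genes. Of 21 interferon-induced genes 1, 3 and 3 were lower and none was higher.

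Several measures of these libraries moved with H2-K1. Controls of different labels correlated at r = 0.971 to 0.993 over genes (12 pairs) and knockouts of different labels at 0.973 to 0.986, as same-group pairs did (0.973 to 0.985), against 0.914 to 0.945 between controls and knockouts (36 pairs). These are descriptions over genes, which are not independent. The chi-square per gene was at least 11.1 for every pair. The 72 replicate pairs of the series ran from 11.1 to 187, so this measure cannot tell whether libraries share an origin. The hepatocyte marker sum was 635400 to 723000 CPM in controls and 252200 to 341900 CPM in knockouts, the lymphoid and class II sum 0.667 to 12.7 and 10.2 to 25.4 CPM, and the macrophage sum 111 to 302 and 141 to 414 CPM. Their part in the result was not tested. Cells holding markers of another type made up 39.7% of control and 60.1% of knockout cells. Without them the H2-K1 differences were 2.91 (Pard3HMKO), 3.62 (labelled YapHMKO) and 2.64 (labelled with both deletions). In that fit the B2m difference of Pard3HMKO was -0.31 and not called (adjusted p = 0.064). H2-K1 reads were found in 41 of 55 and 49 of 60 cells of the Pard3WT libraries and in 34 of 34 and 31 of 31 cells of the Pard3HMKO libraries.

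At birth 5 members were lower and 1 higher in Pard3HMKO, where 21.8% of all genes were called. Psmb8 was at 1.41 and 3.35 CPM against 25.4 and 24.4 CPM (-3.38 ± 0.93, adjusted p = 0.00740), H2-D1 at 73.4 and 79.4 against 187 and 204 CPM (-1.34 ± 0.20, adjusted p = 3.68e-06) and H2-T23 at 54.4 and 68.6 against 143 and 156 CPM (-1.27 ± 0.21, adjusted p = 1.47e-05). H2-Q10 (-0.71 ± 0.10, adjusted p = 7.55e-07) and B2m (-0.46 ± 0.06, adjusted p = 9.53e-08) were lower by less, and H2-Q7 was higher (1.95 ± 0.36, adjusted p = 8.53e-05). Knockout and control libraries did not overlap for any of these 6. The Psmb8 call was lost without Pard3HMKO replicate 1 (-2.87, adjusted p = 0.117). Of 21 interferon-induced genes 7 were lower, led by Iigp1 (-8.16), and of 21 regulators 7 were lower and 1 higher. The macrophage marker sum was lower in the knockouts too, at 98.1 and 139.7 CPM against 322 and 1497 CPM, and so was the hepatocyte sum, at 206600 and 235100 against 341900 and 360000 CPM. Erythroid markers were held by 28 of 30 and 25 of 25 knockout cells and by 48 of 58 and 48 of 60 control cells. Their part in the result was not tested.

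At P14 the directions of H2-Q10 and H2-T23 were the opposite. H2-Q10 was at 1708 and 1526 CPM in Pard3HMKO and 455 and 460 CPM in Pard3WT (1.81 ± 0.10, adjusted p = 1.41e-15), and H2-T23 at 279 and 260.3 against 138 and 137 CPM (0.96 ± 0.21, adjusted p = 8.07e-04). B2m was lower, at 3486 and 3419 against 4775 and 4595 CPM (-0.45 ± 0.06, adjusted p = 3.24e-07). These 3 of 10 were called where 16.7% of all genes were, and 10 of 18 loading genes were higher and none lower, led by Pdia3 (1.27), Sec61b (1.14) and Sec61a1 (1.19). The knockout effect at P14 minus that at P0 was called for 4 members (15.6% of all genes): H2-Q10 2.53 ± 0.14, adjusted p = 3.13e-15, H2-T23 2.23 ± 0.29, adjusted p = 6.12e-07, Psmb8 4.12 ± 1.23, adjusted p = 0.0200 and H2-D1 0.88 ± 0.28, adjusted p = 0.0273. H2-Q10 and H2-T23 kept that call without any 1 of the 8 libraries. Psmb8 lost it without P0 Pard3HMKO replicate 1 (3.61, adjusted p = 0.112), P14 Pard3HMKO replicate 2 (3.78) or either P14 Pard3WT library (4.09 and 4.14). H2-D1 kept it only without P0 Pard3WT replicate 1 or P14 Pard3HMKO replicate 2, with 0.82 to 0.95 without the others. Cells with macrophage markers made up 31 of 35 and 24 of 24 cells of the P14 Pard3HMKO libraries and 6 of 56 and 9 of 57 of the Pard3WT libraries, while the summed macrophage markers overlapped (318 and 520 against 437 and 618 CPM). Median reads per cell were 884500 and 679900 in these knockout libraries and 491800 and 363500 in the controls. The part of these cells and of depth was not tested.

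Around birth the control livers themselves changed. From E19.5 to P0, H2-D1 (1.09 ± 0.20, adjusted p = 1.25e-04) and B2m (0.51 ± 0.06, adjusted p = 2.55e-08) rose and H2-Q4 (-1.11 ± 0.37, adjusted p = 0.0377) and H2-Q7 (-1.34 ± 0.36, adjusted p = 0.00774) fell, 4 of 10 where 14.4% of all genes were called. The H2-Q4 call was lost without any 1 of the 4 libraries (adjusted p up to 0.336) and that of H2-Q7 without either P0 library (-1.40 and -1.29). From P0 to P14 in Pard3WT, 4 rose and 1 fell (19.4%): H2-D1 went from 187 and 204 to 669 and 631 CPM (1.74 ± 0.20, adjusted p = 3.60e-08), B2m rose by 0.74, and H2-Q10 fell from 1125 and 1104 to 455 and 460 CPM (-1.28 ± 0.10, adjusted p = 4.77e-12). H2-T10 rose from 3 reads to 725, a 363.7-fold difference (interval 124 to 1768).

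In Pard3HMKO, 8 members rose from P0 to P14 and none fell (24.7% of all genes called). H2-Q10 went from 627 and 717 to 1708 and 1526 CPM (1.25 ± 0.10, adjusted p = 7.82e-12), opposite to the controls, H2-T23 rose by 2.12, Psmb8 by 4.43 and H2-D1 by 2.62. Tap1 (5.09 ± 1.60, adjusted p = 0.0178) lost its call without either P0 library (4.19 and 4.82), and H2-Q4 lost its call without P0 replicate 2 (1.18) or P14 replicate 1 (0.88, adjusted p = 0.171). Adult Pard3WT livers at day 0, which carry no Cre, were compared with the P14 Foxa3Cre controls, so age and Cre cannot be told apart. There 5 members were higher and none lower (25.0%), with H2-Q10 at 2635 and 2537 CPM (2.45 ± 0.08, adjusted p = 3.56e-06), H2-K1 1.59, H2-Q7 1.31, B2m 0.92 and Psmb8 0.89. The Psmb8 call was lost without day 0 replicate 1 (0.53, adjusted p = 0.221) or either P14 library (0.85 and 0.94).

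After 2 days of culture most heavy chains, Tap1 and Psmb8 were higher and H2-Q10 was lower than in fresh liver. Against E15.5 Pard3WT liver, untreated Pard3WT cultures had 7 members higher and 2 lower, where 27.4% of all genes were called. H2-Q6 was at 80.8 and 124 CPM against 0.443 and 0.631 CPM (7.61 ± 0.43, adjusted p = 5.89e-06), H2-Q7 at 31.2 and 35.4 against 0.272 and 0.210 CPM (7.06 ± 0.32, adjusted p = 4.57e-06) and Tap1 at 19.3 and 25.0 against 0.136 and 0.263 CPM (6.83 ± 0.53, adjusted p = 2.29e-05). Psmb8 had 1667 reads against 2, a 1260-fold difference (interval 348.3 to 10410). Reads of Psmb8 were found in 96.9% of culture cells and 1.2% of liver cells. H2-Q10 fell from 1012 and 806 to 309 and 232 CPM (-1.74 ± 0.27, adjusted p = 0.00111). B2m, the light chain, was the other member that fell (-0.90, adjusted p = 0.00313).

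Against E15.5 YapWT liver, untreated YapWT cultures had 6 members higher and 1 lower (27.3% of all genes called), with Psmb8 5.30 ± 0.48, adjusted p = 6.77e-05, Tap1 2.85 ± 0.41, adjusted p = 8.21e-04, H2-Q6 2.34 ± 0.31, adjusted p = 5.43e-04, H2-D1 2.21 ± 0.15, adjusted p = 2.21e-05 and H2-Q10 -1.72 ± 0.27, adjusted p = 0.00128. The H2-Q7 rise (0.76 ± 0.22, adjusted p = 0.0291) lost its call without any 1 of the 4 libraries (adjusted p up to 0.159). The YapWT livers already held H2-Q7 at 38.3 and 36.1 CPM, the Pard3WT livers at 0.272 and 0.210 CPM. In both comparisons 21 of 22 interferon-induced genes were higher, among them Isg15 (6.14 and 6.66), Rsad2 and Ifi44, and Irf7, an interferon-regulatory factor, rose by 6.90 and 5.08. Tapasin (Tapbp) rose by 2.39 and 2.23, while 6 of 18 loading genes were lower in each. The macrophage marker sum was 3.21 and 4.63 CPM in Pard3WT liver and 41.1 and 44.0 CPM in its cultures, and 23.8 and 27.2 CPM in YapWT liver and 340.0 and 631 CPM in its cultures. The hepatocyte marker sum was 244200 and 276900 CPM in Pard3WT liver and 40960 and 43200 CPM in its cultures, and 189600 and 200200 CPM in YapWT liver and 42350 and 76660 CPM in its cultures. Their part in the result was not tested.

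**Figure D3:**
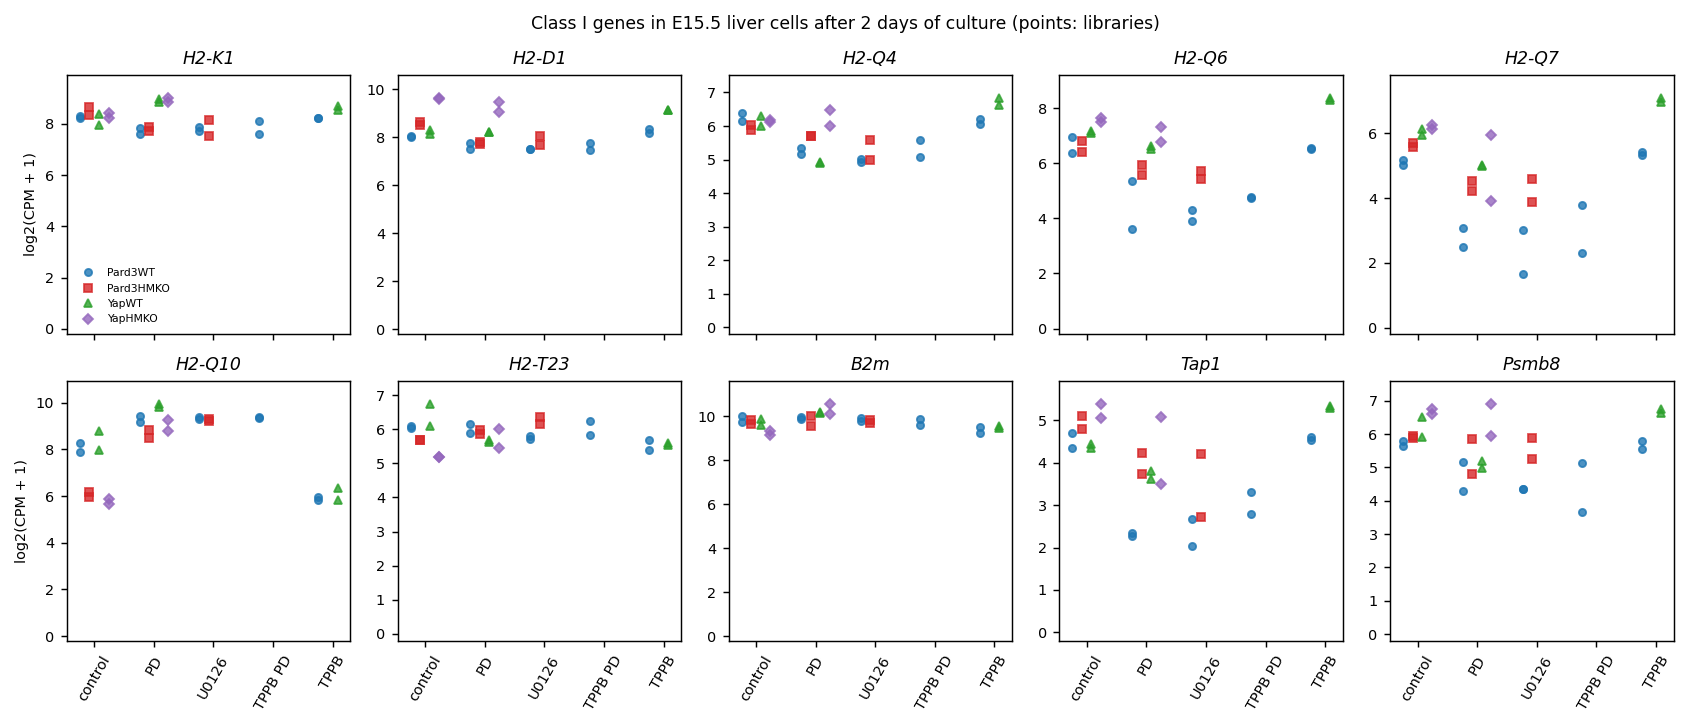
Levels of the 10 genes in log2(CPM + 1) in E15.5 liver tissue after 2 days of culture, by treatment; points are libraries, coloured and shaped by genotype. H2-Q10 is lowest with TPPB and in untreated knockout cultures and highest with PD or U0126, and H2-Q6, H2-Q7 and Tap1 of Pard3WT are lowest with PD or U0126.

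H2-Q10 responded to all 4 treatments of Pard3WT cultures. It was at 309 and 232 CPM untreated, 583 and 682 CPM with PD, 660 and 628 CPM with U0126, 653 and 671 CPM with TPPB and PD, and 55.2 and 60.5 CPM with TPPB alone. The 6 libraries with PD or U0126 lay above both untreated ones, and the TPPB libraries below all. The hepatocyte marker sum was 40960 and 43200 CPM untreated and 8754 and 9232 CPM with TPPB, and 29010 to 39740 CPM in the 6 libraries with PD or U0126, below both untreated ones; its part was not tested. H2-Q10 changes were 1.24 ± 0.22, adjusted p = 6.01e-04 with PD, 1.26 ± 0.22, adjusted p = 5.16e-04 with U0126, 1.301 ± 0.23, adjusted p = 4.25e-04 with TPPB and PD and -2.24 ± 0.23, adjusted p = 1.26e-06 with TPPB. With TPPB it was the 1 member called (6.78% of all genes). Every H2-Q10 call in these 4 held without any 1 library.

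H2-Q4, H2-Q6, H2-Q7 and Tap1 went the other way with PD and U0126. With PD, 4 members fell (14.8% of all genes called): H2-Q7 -2.45 ± 0.60, adjusted p = 0.0103, Tap1 -2.46 ± 0.48, adjusted p = 0.00101, H2-Q6 -1.999 ± 0.37, adjusted p = 0.00105 and H2-Q4 -1.03 ± 0.21, adjusted p = 0.00143. With U0126, 6 fell (13.1%): the same 4 (H2-Q7 -2.81, H2-Q6 -2.63, Tap1 -2.36, H2-Q4 -1.31) with Psmb8 (-1.40 ± 0.43, adjusted p = 0.0379) and H2-D1 (-0.50 ± 0.14, adjusted p = 0.0175). With TPPB and PD, 4 fell (12.7%): H2-Q7 -1.97, H2-Q6 -1.96, Tap1 -1.57 and H2-Q4 -0.93. Tap1 was at 19.3 and 25.0 CPM untreated, 3.85 and 4.11 CPM with PD and 5.33 and 3.12 CPM with U0126. H2-K1, H2-T23 and B2m were called with none of the 4.

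H2-M3, which presents formylated peptides, fell in the same 3 treatments (-3.25, -4.67 and -3.07), and Psme1 rose (1.19, 1.04 and 0.88). Of 22 interferon-induced genes 1 was lower with PD, 5 with U0126, 3 with TPPB and PD and none with TPPB. Macrophage markers were lower too and did not overlap, summing to 7.93 to 13.1 CPM in the 6 Pard3WT libraries with PD or U0126 and 41.1 and 44.0 CPM in the untreated ones. Cells with markers of another type made up 8.51% with PD, 6.67% with U0126, 16.3% with TPPB and PD and 46.9% untreated. Their part in the falls was not tested. Not all falls held without 1 library. The H2-Q7 call was lost with PD without control replicate 2 (-2.36) or PD replicate 1 (-2.14, adjusted p = 0.138). With U0126 it was lost without U0126 replicate 2 (-2.23), and with TPPB and PD without TPPB PD replicate 1 (-1.38) or either control (-2.06 and -1.87). H2-D1 and Psmb8 with U0126 lost theirs without any 1 library (adjusted p up to 0.118 and 0.226). With TPPB and PD, Tap1 lost its call without control replicate 2 or either treated library (up to 0.216), and H2-Q4 without TPPB PD replicate 1 (-0.71).

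H2-Q10 followed the same directions in the other genotypes. In YapWT cultures it went from 439 and 248 CPM to 906 and 972 CPM with PD (1.46 ± 0.23, adjusted p = 9.91e-05) and to 81.3 and 55.7 CPM with TPPB (-2.35 ± 0.23, adjusted p = 7.35e-07). PD called 4 members there (17.51% of all genes), with H2-Q4 -1.26 ± 0.21, adjusted p = 1.75e-04, H2-T23 -0.79 and H2-K1 higher by 0.74. TPPB called 4 (10.4%), with H2-D1 0.89 ± 0.14, adjusted p = 1.17e-04, H2-Q6 1.17 and H2-T23 -0.93. With PD, H2-K1 lost its call without control replicate 1 (0.56) or PD replicate 2 (0.69), and H2-T23 without control replicate 1 (-0.42) or either PD library (-0.75 and -0.83). With TPPB, H2-T23 lost its call without control replicate 1 (-0.55) or either TPPB library (-0.90 and -0.95), and H2-Q6 without any 1 library (adjusted p up to 0.225). The macrophage marker sum was 340.0 and 631 CPM untreated, 19.2 and 23.8 CPM with PD and 50.5 and 56.1 CPM with TPPB, and the hepatocyte sum 42350 and 76660, 41310 and 45440, and 10070 and 13640 CPM; their part was not tested.

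Untreated knockout cultures held less H2-Q10. It was at 60.3 and 70.8 CPM in Pard3HMKO (-2.05 ± 0.23, adjusted p = 1.98e-05 against Pard3WT) and 58.3 and 49.7 CPM in YapHMKO (-2.67 ± 0.24, adjusted p = 3.11e-07 against YapWT), levels that overlapped those of TPPB-treated controls. The hepatocyte marker sum was 14680 to 18810 CPM in these 4 libraries against 40960 to 76660 CPM in the 4 untreated controls, and its part was not tested. H2-D1 was higher in both, at 364 and 396 against 264 and 257 CPM (0.54 ± 0.14, adjusted p = 0.0245) and at 806 and 787 against 279 and 314 CPM (1.43 ± 0.14, adjusted p = 6.97e-07), and H2-T23 was lower in YapHMKO (-1.29 ± 0.22, adjusted p = 4.36e-04). These were 2 of 10 members where 4.9% of all genes were called, and 3 of 10 where 9.17% were. The H2-D1 call in Pard3HMKO was lost without any 1 of the 4 libraries (adjusted p up to 0.208).

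PD raised H2-Q10 in the knockout cultures to 453 and 355 CPM in Pard3HMKO (2.66 ± 0.24, adjusted p = 9.92e-08) and 441 and 602 CPM in YapHMKO (3.28 ± 0.24, adjusted p = 4.41e-09), and U0126 raised it to 600 and 632 CPM in Pard3HMKO (3.23 ± 0.24, adjusted p = 5.39e-09). The PD effect was larger in Pard3HMKO than in Pard3WT by 1.42 ± 0.32, adjusted p = 0.0344, the 1 member called where 0.808% of all genes were. That difference kept its call only without Pard3WT control replicate 2 (adjusted p up to 0.188 without 1 of the others). PD in Pard3HMKO called 3 members (14.52%), with H2-D1 -0.76 ± 0.14, adjusted p = 4.84e-04 and H2-K1 -0.67. U0126 called 6 (17.8%), with Tap1 -1.38, H2-Q6 -1.06, H2-D1 -0.70, H2-Q4 -0.65 and H2-K1 -0.64. PD in YapHMKO called 3 (20.0%), with B2m 1.08 ± 0.16, adjusted p = 3.08e-05 and H2-K1 0.60. H2-K1 lost its call with PD in Pard3HMKO without control replicate 2 or either PD library (adjusted p up to 0.215), and in YapHMKO without either control or PD replicate 2 (up to 0.173). With U0126 it lost its call without control replicate 2 or U0126 replicate 2 (up to 0.354), Tap1 and H2-Q4 without either control or U0126 replicate 2 (up to 0.402 and 0.432), and H2-Q6 without any 1 library (up to 0.295).

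Open chromatin at the promoters was measured in the E17.5 livers (3 libraries in each of Pard3WT, Pard3HMKO, YapWT and YapHMKO) and the cultures (2 in each of 5 groups). The authors' peak lists held 24270 to 45898 peaks, and 30.4 to 39.1% of 32851 promoters held one. A peak covered part of the promoter of H2-K1, H2-D1, H2-Q4, B2m and Tap1 in all 22 libraries, including the E17.5 controls in which H2-K1 RNA was lowest. H2-Q10 had one in 19 of 22. It lacked one in both TPPB libraries and in 1 of 2 untreated Pard3HMKO libraries. In the RNA libraries of those groups, which were separate, it was at 55.2 to 70.8 CPM. Once peaks within 1 kb counted, H2-Q10 had one in 20 of 22 libraries, with 1 of the 2 TPPB libraries among them. Psmb8 had one in 14 of 22, and in 22 of 22 once peaks within 1 kb counted. H2-Q6 had one in 20 and H2-Q7 in 21. Those missing were in PD-treated cultures, in 1 of 2 libraries of each group concerned. The 2 shortest peak lists (24270 and 24330 peaks) were also of PD-treated cultures, and the part of list length was not tested. H2-T23 had one in 18. Peak lists were called per library and hold no level, so no fold of openness was computed.

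In the adult liver B2m was lower and H2-D1 higher at day 2 after partial hepatectomy than at day 0. B2m was at 8270 and 10100 CPM at day 0 and 2881 and 3356 CPM at day 2 in Pard3WT (-1.50 ± 0.14, adjusted p = 9.37e-08), and at 6314 and 7539 against 3409 and 3555 CPM in Pard3HMKO (-0.95 ± 0.14, adjusted p = 2.87e-05). H2-D1 went from 616 and 641 to 880.5 and 924 CPM (0.58 ± 0.16, adjusted p = 0.0130) and from 507 and 642 to 919.9 and 1038 CPM (0.81 ± 0.16, adjusted p = 6.67e-04). Neither gene overlapped between the days. Pard3WT had 3 members called (15.7% of all genes) and Pard3HMKO 2 (18.9%). Tap1 was the third in Pard3WT, at 18.7 and 18.2 CPM at day 0 and 28.4 and 39.3 CPM at day 2 (0.93 ± 0.30, adjusted p = 0.0371), a call lost without any 1 of these 4 libraries (adjusted p up to 0.181). The H2-D1 call in Pard3WT was lost without either day 0 library or day 2 replicate 1 (up to 0.0960). Day 2 Pard3WT replicate 1 held 7 cells, the fewest of any library.

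Tap1 separated the genotypes at day 2. In every adult comparison of genotypes, deletion of Pard3 cannot be told apart from the virus and its Cre, which only Pard3HMKO received. It was at 10.96 and 9.64 CPM in Pard3HMKO against 28.4 and 39.3 CPM in Pard3WT (-1.75 ± 0.30, adjusted p = 0.00159), the 1 member called where 3.18% of all genes were. Irf9 (-1.76), which carries interferon signals to the nucleus, was lower too, as were 10 of 22 interferon-induced genes. The day 2 effect itself did not reach the threshold for any member between genotypes (0 of 10 by edgeR, 2 at an unadjusted p below 0.05, 1 by DESeq2, 2.36% of all genes called); for Tap1 the difference was -1.53 ± 0.42, adjusted p = 0.0591. Of 18 loading genes 7 were higher and 1 lower at day 2 in Pard3WT and 8 and 0 in Pard3HMKO, beside 15.7% and 18.9% of all genes, led by Hspa5 (1.69 and 2.11), Pdia3 (1.15 and 1.36) and Sec61a1 (1.302 and 1.46). Cells with markers of another type made up 78.0% at day 0, 31.8% at day 2 and 40.1% at day 7, and their part in these results was not tested.

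**Figure D4:**
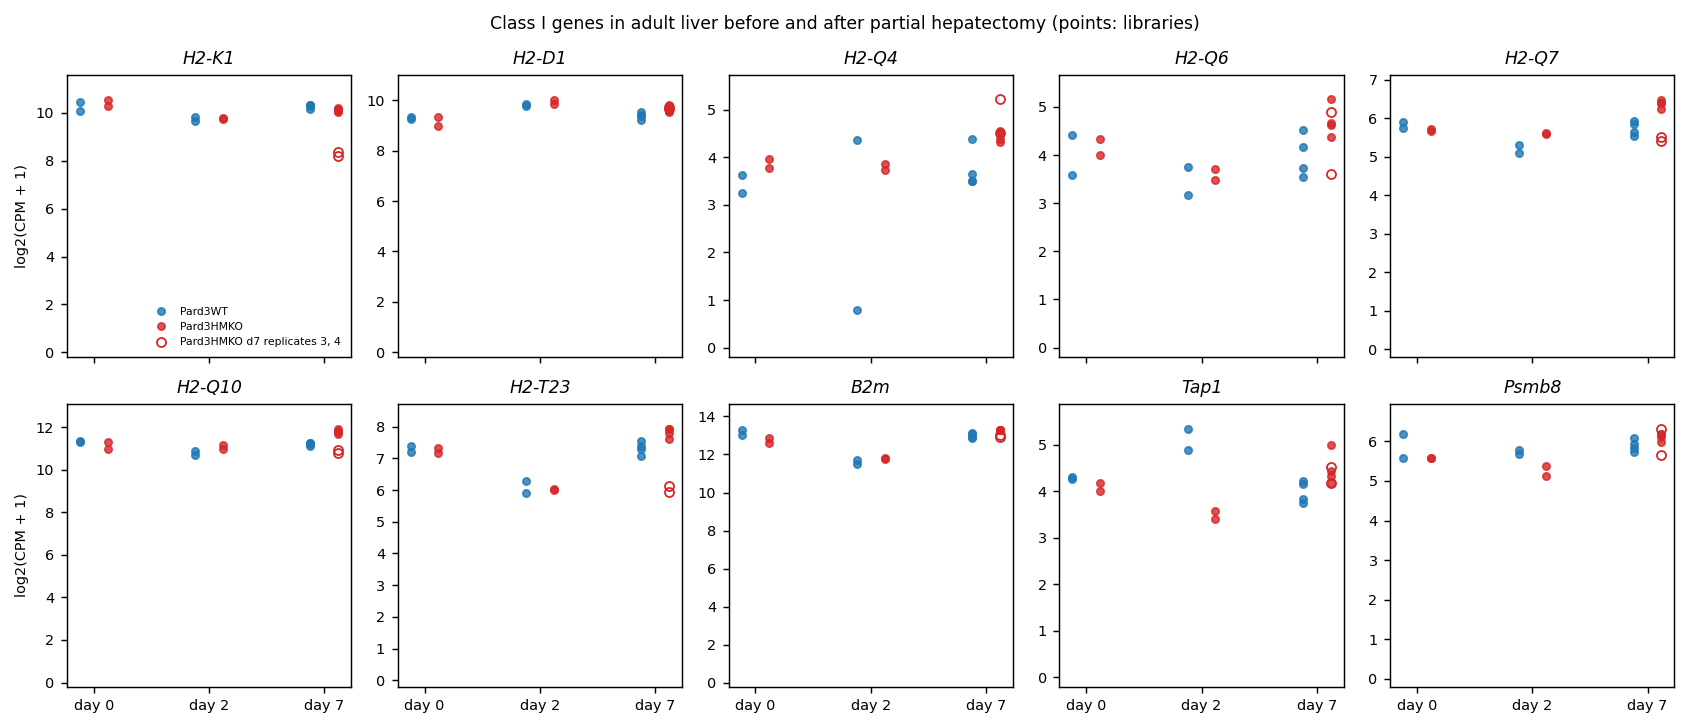
Levels of the 10 genes in log2(CPM + 1) in adult liver at day 0, 2 and 7 after partial hepatectomy; points are libraries of Pard3WT (blue) and Pard3HMKO (red), and open circles are day 7 Pard3HMKO replicates 3 and 4. B2m is lowest at day 2, Tap1 separates the genotypes at day 2, and the open circles sit below the other day 7 libraries for H2-K1, H2-Q10 and H2-T23.

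At day 7, 2 Pard3HMKO libraries stood apart in class I genes. H2-K1 was at 290.6 and 332 CPM in replicates 3 and 4 and 1039 to 1162 CPM in the other 4, H2-Q10 at 1787 and 1924 against 3317 to 3809 CPM, and H2-T23 at 68.5 and 59.9 against 195 to 240.0 CPM. H2-T22 was at 9.38 and 6.99 against 95.5 to 132 CPM, while H2-T10 (54.3 and 48.3 CPM) and H2-Q2 (8.43 and 7.99 CPM) were higher than in the other 4. H2-D1 (815 and 843 CPM) lay among the others (738 to 888 CPM). The same heavy chains, low H2-K1 and H2-T22 with high H2-T10, marked the 6 E17.5 Foxa3Cre controls. The likeness did not extend to all genes: H2-Q10 was called in none of the E17.5 Foxa3Cre comparisons, and H2-T23 only in that of the libraries labelled YapHMKO. H2-T10 was not confined to these libraries either, with 725 reads in P14 Pard3WT.

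With all libraries, Pard3WT at day 7 had 0 of 10 members called against day 0 (0.0% of all genes; 0 at an unadjusted p below 0.05 and 0 by DESeq2). Pard3HMKO had 2 (3.75%): H2-D1 0.59 ± 0.13, adjusted p = 0.0137 and B2m 0.53 ± 0.11, adjusted p = 0.0103, both lost without either day 0 library (adjusted p up to 0.518 and 0.458). Between genotypes 0 of 10 were called at day 0 (0.0%; 1 at an unadjusted p below 0.05, 0 by DESeq2) and 0 of 10 at day 7 (5.52%; 6 at an unadjusted p below 0.05, 2 by DESeq2). These 2 libraries entered the spread of every adult comparison. Without them, the day 2 calls were 7 in Pard3WT, where 21.3% of all genes were called (H2-K1 -0.47, H2-D1 0.58, H2-Q7 -0.58, H2-Q10 -0.48, H2-T23 -1.15, B2m -1.50 and Tap1 0.93) and 4 in Pard3HMKO, where 24.6% were (H2-K1 -0.63, H2-D1 0.81, H2-T23 -1.21 and B2m -0.95). Pard3HMKO at day 7 had 6 above day 0, where 7.19% of all genes were called (H2-D1 0.53, H2-Q7 0.77, H2-Q10 0.72, H2-T23 0.63, B2m 0.60 and Psmb8 0.63), and 4 above Pard3WT, where 7.77% were (H2-Q7 0.65, H2-Q10 0.60, H2-T23 0.48 and B2m 0.29). The day 2 effect then differed between genotypes for 2, B2m (0.56) and Tap1 (-1.53), where 5.19% of all genes did.

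**Figure D5:**
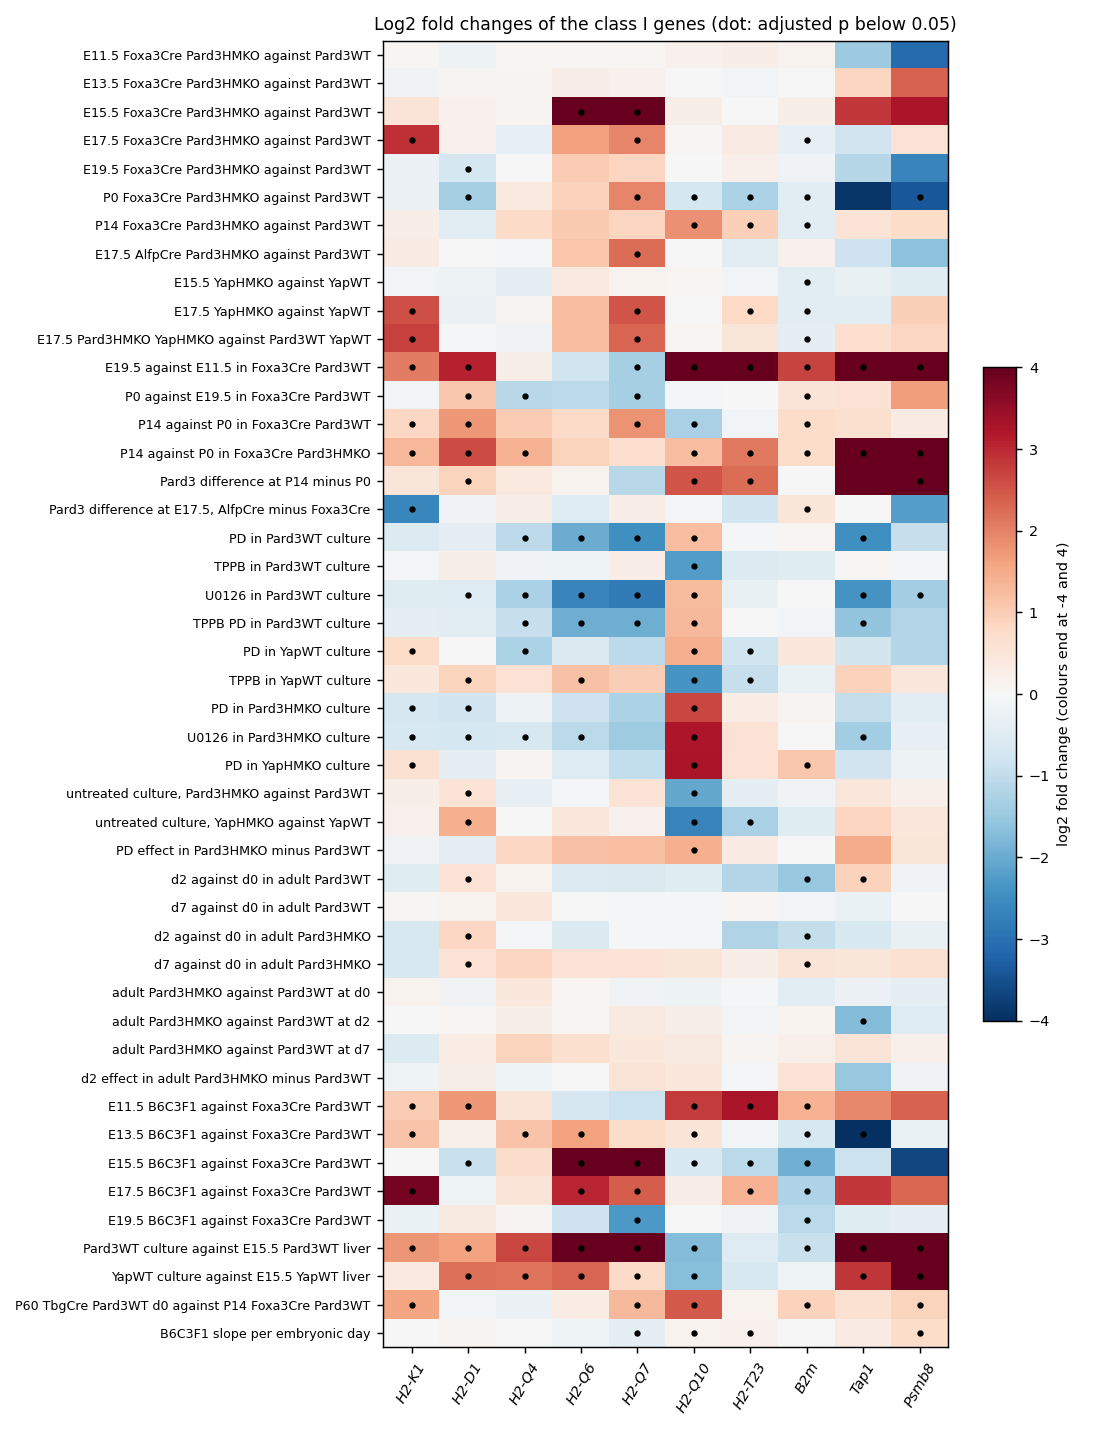
Log2 fold changes of the 10 genes (columns) in the 46 comparisons (rows), as colours that end at -4 and 4; a dot marks an adjusted p below 0.05. H2-Q10 and B2m carry the most dots (25 and 22), and Psmb8 and Tap1 among the fewest (9 and 11).

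Over the 46 comparisons H2-Q10 was called 25 times (16 higher, 9 lower), B2m 22 times (9 and 13), H2-D1 20 times (14 and 6) and H2-Q7 19 times (12 and 7). H2-K1 was called 16 times (13 and 3), H2-T23 13 times (8 and 5), H2-Q6 and Tap1 11 times each, H2-Q4 10 times and Psmb8 9 times. Comparisons share libraries, so these are counts and not independent events. Over the 49 group means of log2(CPM + 1), the closest pairs were Tap1 with Psmb8 (r = 0.954), H2-D1 with Psmb8 (0.899) and Tap1 (0.884), H2-Q4 with H2-Q6 (0.801), and H2-K1 with H2-D1 (0.756). H2-Q10 went with H2-T23 (0.717) and B2m (0.711) and against H2-Q6 (-0.541). These values describe groups that share strain, age and culture.

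Among 10888 genes reaching 10 CPM in at least 1 group, those with the pattern most like H2-Q10 over the 49 groups were Mbl1 (r = 0.962), a mannose-binding lectin, Slc22a18 (0.953), Agxt2 (0.947), Aldh8a1 (0.945) and Masp2 (0.943). For B2m they were Cyp4v3 (0.914), Rnf13 (0.911), Il18 (0.908), Ugt2b1 (0.899) and Blvrb (0.893). For H2-K1 they were March8 (0.858), Snf8 (0.846), Tbcel (0.845), Usp4 (0.834) and Ogfrl1 (0.828). For H2-Q7 the nearest was its near-identical neighbour H2-Q6 (0.712), then Cadm1 (0.703), Trim25 (0.702), Fmnl2 (0.672) and Tor1aip1 (0.658). The 5 genes nearest to H2-Q10 all correlated more strongly than any nearest gene of the other 3.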

How the data were processed

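RNA was measured with Smart-seq3xpress and open chromatin with ATAC-seq, per the labels. The deposited table holds read counts per gene and cell, which the authors made with no normalization that the file states. The counting method is not given in the sources used here. Per the submitters' processing notes the builds were GRCm38 and mm10 and the tools MACS 1.4.2, HOMER, SAMtools 1.3.1, HISAT2 2.1.0, Bowtie2 2.2.5, FastQC 0.11.9 and Trimmomatic 0.39 and 0.38. The deposited peak lists hold a score per peak, and only the peaks' positions were used.

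Counts were summed over the cells of each library and tested with edgeR 4.0.16 (genes kept by filterByExpr on groups, TMM factors, trended dispersion, robust quasi-likelihood F test, Benjamini-Hochberg adjustment over all genes within a comparison, called below 0.05). The libraries of one setting (embryonic and postnatal lines, cultures, adult livers, B6C3F1 stages) shared 1 estimate of the spread. Levels are CPM with TMM factors over all 106 libraries (0.456 to 2.10). The 92 spike-in entries were left out. Scripts were tested on simulated data. A promoter was 250 bases before to 50 after a RefSeq start, and a peak counted on any overlap.

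Alternatives were no filter, RLE size factors, DESeq2 1.42.0, a replicate block, each library left out, only the compared libraries, and no cells with markers of another type. Leaving out day 7 Pard3HMKO replicates 3 and 4 was chosen after seeing the data. Text names the 10 genes always, up to 4 called genes of the class I lists and up to 3 called interferon-induced genes with the smallest adjusted p; H2-T24, H2-T10 and H2-Q2 levels were named after their values were seen. A listed gene is not reported here. The 10 genes and the lists were chosen with earlier results of these data known.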

Additional observations from a re-analysis of the deposited data

Results flagged for a closer look

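Some libraries stood far from the rest of their group. Among 20 sets of values (10 genes in the 2 adult day 7 groups, of 4 and 6 libraries), of which chance would mark about 1 in 20, 4 held a library whose gap to the nearest other was large for the group's range. These were the lowest H2-K1 (1133 CPM) and the highest H2-Q4 (19.9 CPM) of adult Pard3WT at day 7, and the highest H2-Q4 (36.15 CPM) and the highest Tap1 (31.0 CPM) of adult Pard3HMKO at day 7.

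Effects of the same contrast differed between settings for 7 gene values, each by a test of the difference itself in edgeR. The knockout effect of Pard3 at P14 minus that at P0 was 0.88 for H2-D1, 2.53 for H2-Q10, 2.23 for H2-T23 and 4.115 for Psmb8 (log2). The knockout effect at E17.5 in AlfpCre minus that in Foxa3Cre was -2.61 for H2-K1 and 0.49 for B2m. The PD effect on H2-Q10 was larger in Pard3HMKO than in Pard3WT cultures by 1.42.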

How the results depend on the processing

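Of the 460 fold changes (10 genes in 46 comparisons), 439 stayed on the same side of the threshold under DESeq2 and 454 under RLE size factors. Among these, values called in both fits kept their direction, and sign changes of values called in neither were not counted. Over all single libraries left out, 2135 of 2270 values stayed on the same side, 113 lost their call and 20 gained one. The other 2 changed sign with a call in either fit. Those 2 were H2-Q4 in adult Pard3WT at day 2 and its day 2 difference between genotypes. Without Pard3WT day 2 replicate 2 they stood at -3.62, adjusted p = 0.0018, and 3.58, and without replicate 1 at 0.95 and -0.99; after leaving out replicate 2, the remaining replicate held 7 cells. The H2-Q4 difference between B6C3F1 and Foxa3Cre Pard3WT at E13.5 was -0.26 without cells holding markers of another type. The cause was not tested for any value here.

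Counts of called members moved as follows, each from the count in the report. The share of all genes called is given above only for the fits without day 7 Pard3HMKO replicates 3 and 4 and without the E15.5 and E16.5 B6C3F1 libraries. Under every other setting, here and with 1 library left out, a moved count is not set against that share. It is therefore not a result about these genes alone. Without the filter on low counts they went in the adult livers from 2 to 4 (Pard3HMKO day 2), 2 to 1 (Pard3HMKO day 7) and 0 to 1 (genotypes at day 7). In cultures they went from 4 to 7 (PD in YapWT), 3 to 5 (PD in Pard3HMKO and in YapHMKO), 2 to 1 (untreated Pard3HMKO) and 1 to 2 (difference of PD effects). In livers they went from 1 to 2 (E19.5, and AlfpCre), 3 to 5 (P14, and libraries labelled with both deletions) and 1 to 0 (E15.5 YapHMKO). Without cells holding markers of another type they went from 5 to 3 (P60 against P14), 2 to 4 and 2 to 5 (Pard3HMKO day 2 and day 7), 0 to 3 (genotypes at day 7), 7 to 4 (YapWT culture against liver), 1 to 2 (TPPB in Pard3WT), 2 to 1 (untreated Pard3HMKO culture, and the difference of Cre lines) and 1 to 0 (E19.5, AlfpCre and E15.5 YapHMKO). No value could be fitted that way for the 4 comparisons with P0 or P14 Pard3HMKO. With only the compared libraries they went from 2 to 4 and 2 to 0 (Pard3HMKO day 2 and day 7), 3 to 5 (PD in Pard3HMKO, and P14), 2 to 1 (untreated Pard3HMKO culture, and the difference of Cre lines), 2 to 0 (E15.5), 1 to 4 (E19.5) and 1 to 0 (E15.5 YapHMKO). DESeq2 gave 2 for genotypes at day 7, 1 for the difference of day 2 effects, 2 for TPPB in Pard3WT and 3 for E19.5, and RLE size factors gave 2 for E19.5. Without day 7 Pard3HMKO replicates 3 and 4 the counts were 7 (Pard3WT day 2), 4 (Pard3HMKO day 2), 6 (Pard3HMKO day 7), 4 (genotypes at day 7) and 2 (difference of day 2 effects).

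With 1 library left out, counts ran from 1 to 3 (E15.5), 0 to 0 (E19.5), 1 to 2 (AlfpCre), 2 to 3 (P0 against E19.5), 2 to 4 (P14 minus P0), 4 to 5 (U0126 in Pard3WT), 2 to 5 (TPPB and PD), 2 to 4 (PD in YapWT), 2 to 3 (TPPB in YapWT), 2 to 5 (U0126 in Pard3HMKO), 2 to 6 (PD in YapHMKO), 1 to 1 (untreated Pard3HMKO), 0 to 1 (difference of PD effects), 1 to 3 (Pard3WT day 2), 0 to 3 (Pard3HMKO day 7), 1 to 2 (genotypes at day 2) and 0 to 1 (difference of day 2 effects). Same-numbered libraries mostly did not vary together: of 462 correlations in the embryonic and postnatal lines 4 were over 0.1 (-0.0714 to 0.44). Some E17.5 controls were an exception. Over genes, same-numbered libraries of Pard3WT and Pard3WT YapWT correlated at r = 0.986 and 0.989, differently numbered ones at 0.976 and 0.98. For YapWT and Pard3WT YapWT the values were 0.99 and 0.993 against 0.983 and 0.982. For Pard3WT and YapWT they were 0.971 and 0.979 against 0.972 and 0.976. Whether these control libraries are independent of each other was not tested. The replicate block took the Pard3HMKO day 7 count from 2 to 0 and moved none of the other 45 counts by more than 1.5 times. Thinned to equal reads, cells with a read fell to 46.1% for H2-K1 (E17.5 Pard3WT), 2.47% for H2-Q7 (E15.5 Pard3WT) and 68.8% for H2-Q7 (E15.5 YapWT). Psmb8 peaks went from 14 to 22 libraries with a 1 kb window. With 2 libraries in most groups, Tap1 and Psmb8 before birth, at a few reads per library, had standard errors near or above 1, so that only large differences could be called.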
